A study of Mus musculus with 8 samples.

Results

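The 9 genes described here carry the signal of leukaemia inhibitory factor (LIF) through the transcription factor Stat3 in mouse embryonic stem (ES) cells. They are the receptor chains Lifr and Il6st, the kinase Jak1, Stat3 itself, and the direct Stat3 targets Socs3, Pim1, Pim3, Junb and Gbx2. They were taken by gene name, with earlier results of these data known, from 18140 genes that have a probe set with exactly 1 gene symbol. The 9 genes have 24 such probe sets, and all 9 were among the 12394 genes tested, those whose value exceeded the median of its array on 2 or more of 8 arrays. None of their probe sets carries a second gene symbol.

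The series measured RNA on 8 Affymetrix arrays of V6.5 cells, a line of mouse ES cells, after depletion of proteins of the structural maintenance of chromosomes (SMC) complexes. Each of the 4 groups had 2 arrays. The CapH2 knockdown (gene Ncaph2, a subunit of condensin II) used hairpins 3 and 4, and the Smc2 knockdown (a subunit of both condensins) used hairpins 1 and 2, each hairpin on 1 array. In the Smc1 knockdown (cohesin subunit, gene Smc1a) and in the GFP control, a single hairpin was used for 2 biological replicates. All 4 groups, the control included, were infected with virus in medium with 8 µg/ml polybrene, selected in 4 µg/ml puromycin for 4 days and harvested on day 5. The labels call the medium standard and do not state its LIF content. Smc1 and GFP rest on 1 hairpin each, so off-target effects cannot be told apart from depletion there. The hairpin numbers of CapH2 and Smc2 name different constructs, so their 2 arrays are not repeats of 1 construct.

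LIF is the cytokine that keeps mouse ES cells undifferentiated in culture. It joins Lifr and Il6st (gp130) into a receptor, the receptor-bound Jak kinases phosphorylate Stat3, and phosphorylated Stat3 enters the nucleus and binds its target genes. Socs3 is both a target and the main feedback inhibitor of the pathway, so its RNA is often read as a sign of Stat3 activity. The arrays measure RNA only, and the phosphorylation that carries the signal was not measured.

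Stat3 binds pairs of inverted half-sites of the form TTCNNNGAA, which reads the same on both strands. The promoter windows of the 9 genes were searched for it, each from 250 bases before to 50 bases after a RefSeq start site (assembly GRCm38.p6). Of the 11 windows of the 9 genes, 1 held the motif, that of Socs3, where it begins 154 bases before the start. Of all 32851 windows in the RefSeq set, 8.3% held it. The stretches below are shown for Socs3, the classical Stat3 target, and for the genes of the 9 with the largest log2 changes in the Smc1 knockdown against GFP, Lifr and Gbx2, with motif bases in capitals. Socs3 is shown at chr11:117969367-117969526 on the minus strand, Gbx2 at chr1:89931177-89931336 on the minus strand, and Lifr, which has a pair of windows, at chr15:7129412-7129571 on the plus strand.
Socs3: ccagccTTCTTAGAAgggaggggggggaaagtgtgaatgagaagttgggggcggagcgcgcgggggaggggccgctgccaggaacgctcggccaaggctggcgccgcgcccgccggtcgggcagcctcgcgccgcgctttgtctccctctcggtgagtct
Lifr: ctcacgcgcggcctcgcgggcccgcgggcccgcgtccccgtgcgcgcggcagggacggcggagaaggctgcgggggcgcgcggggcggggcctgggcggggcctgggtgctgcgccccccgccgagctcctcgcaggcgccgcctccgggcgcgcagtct
Gbx2: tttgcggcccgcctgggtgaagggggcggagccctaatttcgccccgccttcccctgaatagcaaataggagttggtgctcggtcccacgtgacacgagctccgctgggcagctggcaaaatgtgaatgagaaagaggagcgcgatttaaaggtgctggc
A match describes the letters of the window and is not a measured binding site. The windows of Lifr and Gbx2 hold no match, which says nothing of sites elsewhere.

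Values are linear array intensities, scaled by the authors to a common trimmed mean on every array, and array medians lay between 62.5 and 74.5. Intensities of different probe sets cannot be set against each other, so each gene was compared only with itself across arrays. A log2 change is the difference of group means of log2(intensity + 16), each knockdown over GFP. A gene was called where its limma p, adjusted by the Benjamini-Hochberg method over all 12394 genes, was below 0.05. Each targeted gene was called lower in its own knockdown: Ncaph2 by -2.96, Smc2 by -1.64 and Smc1a by -2.95 on the log2 scale. All 7 ES cell markers, among them Pou5f1, Nanog and Sox2, lay above the median of every array. Their summed intensity was 79568 to 83082 on the CapH2 arrays, 87414 to 91709 on Smc2, 61785 to 73440 on Smc1 and 94548 to 100358 on GFP. Dppa5a was the brightest and alone gave 31636.6 to 42496.5 of the sum over the 8 arrays. The Actb 3' to 5' ratio reflects how intact the labelled RNA was. It was 1.67 and 1.98 for CapH2 hairpins 3 and 4, 1.82 and 2.18 for Smc2 hairpins 1 and 2, 1.70 and 1.84 on Smc1 and 2.18 and 2.04 on GFP. All 3 knockdowns are compared with the same 2 GFP arrays, so a deviation of these arrays enters every such comparison.

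Of the 9 genes, 1 was called in the Smc1 knockdown against GFP, Lifr, which was lower. Among all genes 14.0% were called in that comparison, 9.30% higher and 4.69% lower. No gene of the 9 was called in the CapH2 or the Smc2 knockdown, where the background was 0.0161% (2 of 12394 genes in each, the targeted gene among them). At an unadjusted limma p below 0.05 there was 1 of 9 genes in the CapH2 knockdown and 1 in the Smc2 knockdown, Gbx2 in both, against 12.6% of all genes in each. In the Smc1 knockdown there were 3 of 9 (Lifr, Pim1 and Stat3), against 31.2% of all genes. The median log2 change of the 9 genes was -0.05 in the CapH2, -0.06 in the Smc2 and -0.04 in the Smc1 knockdown, beside 0.01, -0.01 and 0.03 over all genes tested.

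**Figure D1:**
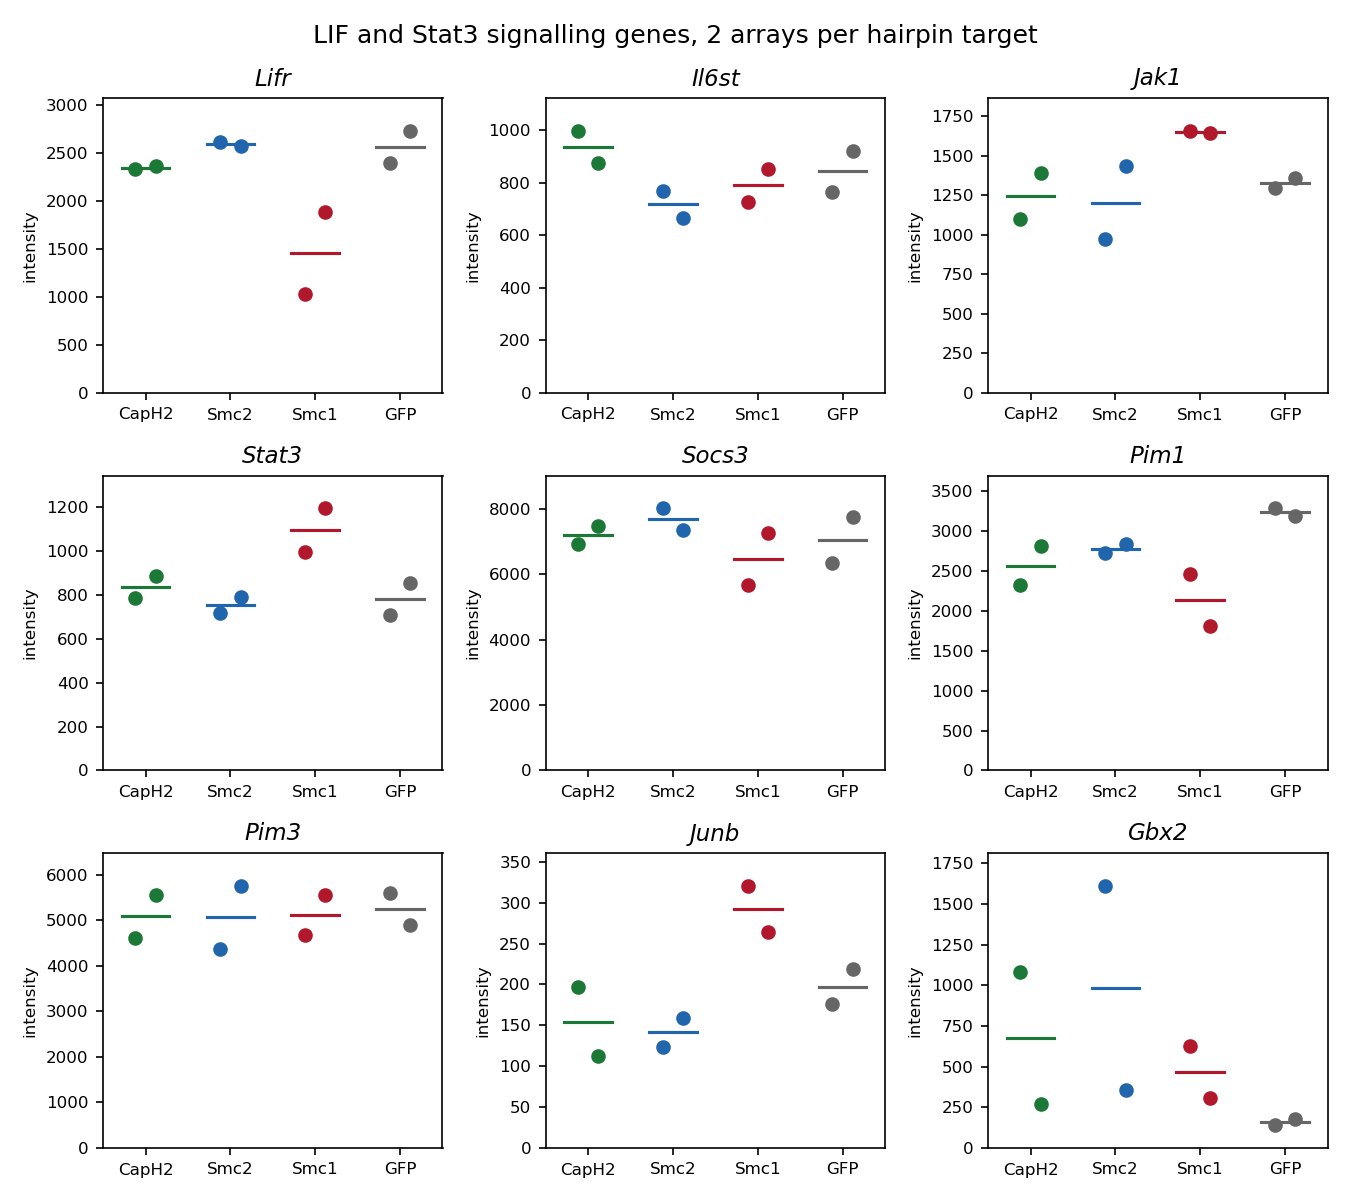
Array intensity (linear, from 0) of the probe set that stands for each of the 9 genes. Each point is 1 array, each bar the mean of the 2 arrays of a group. Both Smc1 arrays lie below all other arrays for Lifr, and all 6 knockdown arrays lie above both GFP arrays for Gbx2.

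Lifr encodes the chain of the receptor that binds LIF with low affinity on its own. Its intensity was 2335 and 2359 with CapH2 hairpins 3 and 4, 2616 and 2570.2 with Smc2 hairpins 1 and 2, 1032 and 1884 on the Smc1 replicates and 2393 and 2730.2 on the GFP replicates. Both Smc1 arrays were below the other 6, and they differed from each other by 1.83-fold, more than any other pair of this gene. The group mean was 1458 ± 602.5 in the Smc1 knockdown and 2561 ± 239 in GFP (SD, n = 2 each), which is 56.9% of GFP. The log2 change was -0.87 (SE 0.247, 95% interval -1.42 to -0.31, limma adjusted p = 0.0448), at the edge of the threshold. In the CapH2 and Smc2 knockdowns it was -0.12 (SE 0.247, adjusted p = 0.862) and 0.02 (SE 0.247, adjusted p = 0.978).

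The call of Lifr was lost in 9 of 19 other settings. Without Smc1 replicate 1 the change was -0.44 (adjusted p = 0.292), and without Smc1 replicate 2 it was -1.30 (adjusted p = 0.0105). It was -0.96 (adjusted p = 0.159) without GFP replicate 1 and -0.77 (adjusted p = 0.191) without GFP replicate 2. Without CapH2 hairpin 3 or 4, which enter only through the pooled spread, the adjusted p was 0.0535 and 0.0530. With the Actb ratio as a covariate the change was -0.74 (adjusted p = 0.199), and with the mean of its 3 probe sets it was -0.90 (adjusted p = 0.0683). Without the filter or without the intensity trend the adjusted p was 0.0646 and 0.0880.

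A second probe set of Lifr gave the same direction. It measured 128 and 168 on the CapH2 arrays, 131 and 154 on Smc2, 56.1 and 115 on Smc1 and 222 and 264 on GFP. All 6 knockdown arrays lay below both GFP arrays there. With every probe set fitted on its own, this one was called lower in the Smc1 knockdown (-1.41, SE 0.317, limma adjusted p = 0.0184), but not in the CapH2 (-0.67) or the Smc2 knockdown (-0.70). The remaining probe set was dim, between 30.0 and 101, and changed by -0.43 in the Smc1 knockdown (adjusted p = 0.550). In bulk RNA, fewer cells with Lifr and less Lifr RNA per cell cannot be told apart.

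Lifr moved beside the ES cell markers in the Smc1 knockdown. Of the 7 markers 4 were called lower there, Nanog (-0.73), Zfp42 (-0.83), Sox2 (-0.88) and Pou5f1 (-0.82), where 4.69% of all genes were. Dppa5a, Utf1 and Dppa3 were not called, at 86.1%, 92.7% and 61.1% of the GFP mean. Of 6 primitive endoderm markers tested, Dab2 and Pdgfra were called higher, where 9.30% of all genes were. Gata6 (-0.51) and Foxa2 (-0.52) were not called. The sum of all 7 listed was 817 to 1034 on Smc1 arrays and 411 to 614 on GFP arrays, with Dab2 alone at 446 and 389 on Smc1 and 75.3 and 155 on GFP. Of 6 feeder fibroblast markers tested, Col3a1 was called higher against GFP. Postn (-1.16), Thy1 (-0.39) and Col1a2 (-0.04) were not called there, and Postn was called lower against the condensin knockdowns (-1.41, limma adjusted p = 0.0337). The sum of all 10 listed was 1072 to 1175 on Smc1 and 710.4 to 762 on GFP. Col3a1 made up 408 and 190 of it on Smc1 and 55.9 and 68.5 on GFP, and Pdgfrb 293 and 477 on Smc1 and 206 and 230 on GFP. The part of these shifts in the Lifr result was not tested.

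Il6st encodes gp130, the receptor chain that LIF shares with the other cytokines of the interleukin 6 family. It measured 997 and 874 on the CapH2 arrays, 768 and 666 on Smc2, 727 and 851 on Smc1 and 765 and 921 on GFP. Neighbouring groups overlapped in the order of their means, CapH2, GFP, Smc1 and Smc2. The changes were 0.15 in CapH2, -0.23 in Smc2 and -0.09 in Smc1 (95% interval of the last -0.53 to 0.35), and none was called. Of its 3 other probe sets, 2 changed by 0.02 and 0.53 in the Smc1 knockdown without a call. The fourth was too dim to be tested, between 3.76 and 90.8. Lifr was called in the Smc1 knockdown and Il6st, the other chain of the receptor, was not, although a fall of that gene by 0.53 lies within its interval. The difference between the 2 genes was not tested.

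Jak1 encodes the main kinase bound to gp130. It measured 1097 and 1390.0 on the CapH2 arrays, 970.1 and 1432 on Smc2, 1657 and 1643 on Smc1 and 1293 and 1360.0 on GFP. Both Smc1 arrays were above the other 6. The log2 change of 0.31 in the Smc1 knockdown was not called (SE 0.218, limma adjusted p = 0.364), nor were -0.10 in CapH2 and -0.17 in Smc2. Its other probe sets gave 0.23 and 0.13 in the Smc1 knockdown.

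Stat3 encodes the transcription factor that the receptor activates. On its brightest probe set it measured 789 and 886 on the CapH2 arrays, 718 and 792 on Smc2, 996 and 1196 on Smc1 and 708 and 857 on GFP. Both Smc1 arrays lay above the other 6, and the remaining groups overlapped. The change in the Smc1 knockdown was 0.48 (SE 0.196, unadjusted p = 0.0351, limma adjusted p = 0.129), and it was not called. It was 0.10 in CapH2 and -0.05 in Smc2. The probe sets of Stat3 disagreed. A second bright one, at 675 to 1178, changed by 0.15 in the Smc1 knockdown, while the 2 dim ones, between 52.8 and 150.5, changed by -0.29 and -0.82. None of the 4 was called, so no direction is given for Stat3.

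**Figure D2:**
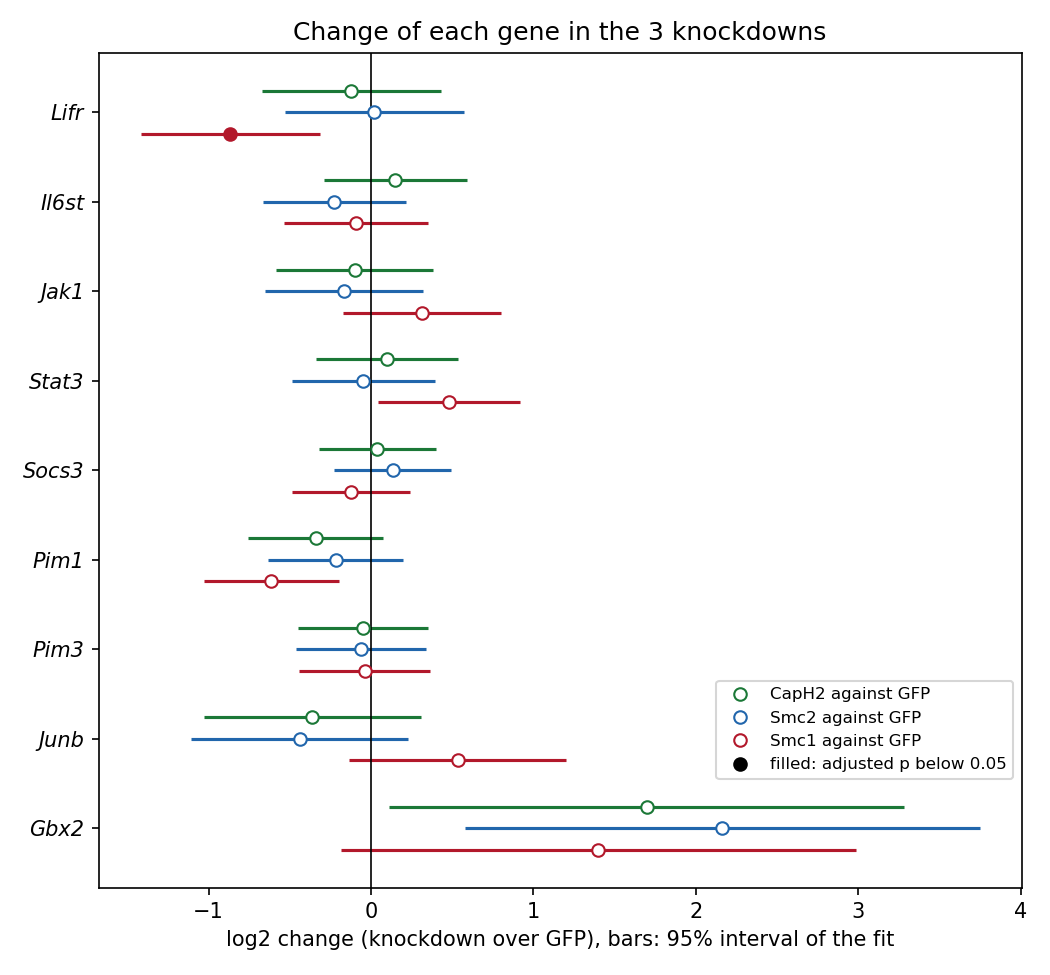
Log2 change of the 9 genes in each knockdown over GFP, with 95% intervals of the limma fit, and filled points for an adjusted p below 0.05. Lifr in the Smc1 knockdown (-0.87) is the 1 filled point, and the intervals of Gbx2 are the widest.

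Socs3 encodes the feedback inhibitor that binds gp130 and the Jak kinases. It measured 6919 and 7486 on the CapH2 arrays, 8028 and 7355 on Smc2, 5681 and 7278 on Smc1 and 6337 and 7750.1 on GFP. All neighbouring groups overlapped. The changes were 0.04 in CapH2 (95% interval -0.32 to 0.40), 0.13 in Smc2 (-0.23 to 0.49) and -0.12 in Smc1 (-0.48 to 0.24), with none called. Its other probe sets gave -0.28 and -0.32 in the Smc1 knockdown, also without a call. On all 3 probe sets Smc1 replicate 1 was the lowest of the 8 arrays.

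Pim1 encodes a serine/threonine kinase that promotes survival and self-renewal. It measured 2323 and 2809 on the CapH2 arrays, 2729 and 2834 on Smc2, 2467 and 1808 on Smc1 and 3286 and 3192 on GFP. All 6 knockdown arrays lay below both GFP arrays. The group mean was 2566 ± 343 in CapH2, 2781 ± 74.3 in Smc2, 2137 ± 466 in Smc1 and 3239 ± 66.2 in GFP (SD, n = 2 each). The change in the Smc1 knockdown was -0.61 (SE 0.186, unadjusted p = 0.00823, limma adjusted p = 0.0546), just outside the threshold. The changes in CapH2 (-0.34, adjusted p = 0.467) and Smc2 (-0.22, adjusted p = 0.635) were not called.

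On the second probe set of Pim1 the order of the groups was alike. It measured 464 and 620.1 on the CapH2 arrays, 436 and 649 on Smc2, 359 and 457 on Smc1 and 732 and 750.0 on GFP, again with every knockdown array below GFP. Fitted on its own it was called lower in the Smc1 knockdown (-0.85, SE 0.249, limma adjusted p = 0.0495). With the mean of both probe sets in place of the brighter one, Pim1 was called lower (-0.73, adjusted p = 0.0378). Without Smc1 replicate 2 its change was -0.39 (adjusted p = 0.264).

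Pim3 encodes a related kinase. It measured 4616 and 5552 on the CapH2 arrays, 4369 and 5759 on Smc2, 4686 and 5547 on Smc1 and 5603 and 4893 on GFP. The groups overlapped throughout, and the changes of -0.05, -0.06 and -0.04 (CapH2, Smc2 and Smc1) were the most alike of the 9 genes. The 95% interval in the Smc1 knockdown was -0.44 to 0.36. A second probe set was lower in Smc1 by -0.34 (adjusted p = 0.330) and was not called.

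Junb encodes a subunit of the AP-1 transcription factor and has 1 probe set. It measured 196 and 113 on the CapH2 arrays, 124 and 159 on Smc2, 321 and 264 on Smc1 and 176 and 219 on GFP. Both Smc1 arrays were above the other 6. Against GFP the change in the Smc1 knockdown was 0.53 (SE 0.300, limma adjusted p = 0.259) and was not called, nor were -0.36 in CapH2 and -0.44 in Smc2.

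**Figure D3:**
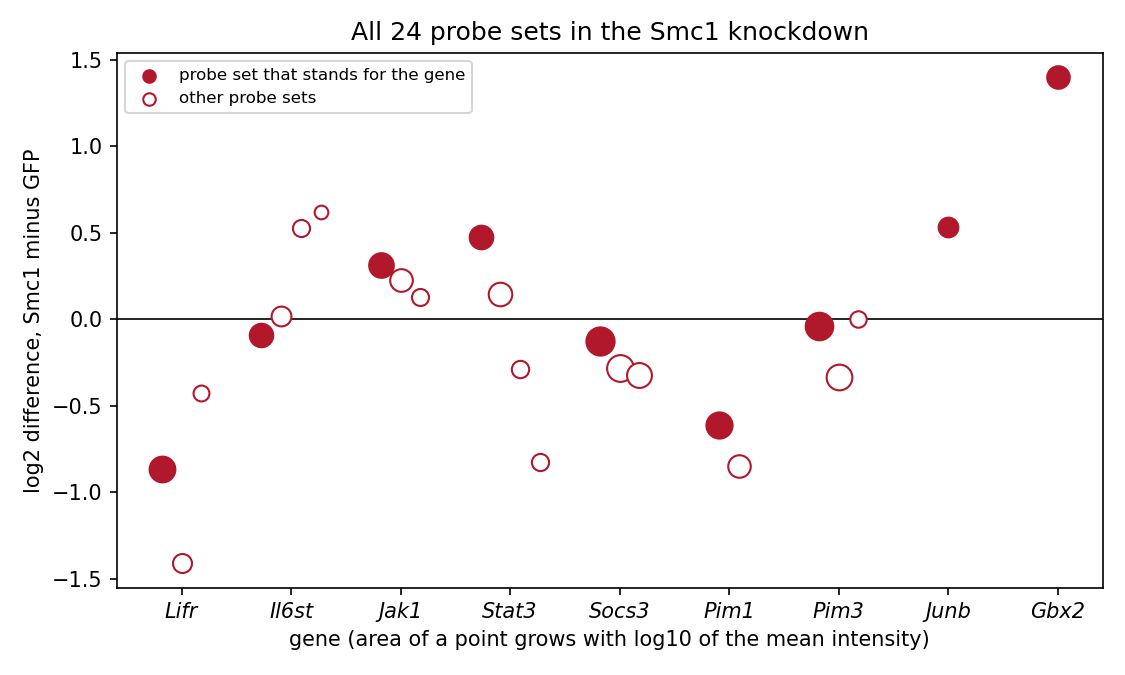
Difference of the mean log2 intensity, Smc1 minus GFP, for all 24 probe sets of the 9 genes, with the probe set that stands for each gene filled and larger points for brighter probe sets. The probe sets of Lifr and Pim1 all lie below 0, those of Jak1 all above it, and those of Stat3 on both sides.

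Over the 24 probe sets, 13 were lower and 11 higher in the Smc1 knockdown than in GFP. In CapH2 17 were lower and 7 higher, and in Smc2 20 were lower and 4 higher. By gene, on the probe set that stands for each, 5 of 9 were lower in Smc1, 5 in CapH2 and 6 in Smc2. The 24 include dim probe sets, 1 of them too dim to be tested. The share of lower probe sets over the whole array was not computed, so these counts show no lean of the 9 genes. Probe sets of 1 gene share its RNA and are not independent.

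Gbx2 encodes a homeobox transcription factor that supports self-renewal of mouse ES cells downstream of Stat3. On the log2 scale it had the widest range of the 9 genes. It measured 1085 and 271 with CapH2 hairpins 3 and 4, 1612 and 355 with Smc2 hairpins 1 and 2, 627 and 309.5 on the Smc1 replicates and 141 and 176 on the GFP replicates. All 6 knockdown arrays were above both GFP arrays. The 2 arrays of a group differed by 4.00-fold in CapH2, 4.54-fold in Smc2, 2.03-fold in Smc1 and 1.25-fold in GFP. The spread of its log2 values within groups, 1.08, was larger than that of 99.8% of the genes tested, whose median was 0.239.

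The group means of Gbx2 were 678 ± 575 in CapH2, 983 ± 889 in Smc2, 468 ± 225 in Smc1 and 158 ± 25.2 in GFP (SD, n = 2 each). The log2 change was 1.70 in CapH2 (SE 0.710, 95% interval 0.11 to 3.28, limma adjusted p = 0.379). It was 2.16 in Smc2 (interval 0.58 to 3.75, adjusted p = 0.279) and 1.40 in Smc1 (interval -0.18 to 2.98, adjusted p = 0.213). None was called, although the CapH2 and Smc2 changes were higher than those of 99.7 and 99.9% of all genes tested. Without CapH2 hairpin 3 the CapH2 change was 0.73, and without hairpin 4 it was 2.67. Without Smc2 hairpin 1 the Smc2 change was 1.10, and without hairpin 2 it was 3.23 (adjusted p = 0.0447), the 1 setting without an array in which Gbx2 was called.

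In each knockdown the array with the higher Gbx2 was the one with the lower Actb 3' to 5' ratio: CapH2 hairpin 3 at 1.67, Smc2 hairpin 1 at 1.82 and Smc1 replicate 1 at 1.70. The 2 GFP arrays, at 2.18 and 2.04, had the lowest Gbx2. With the Actb ratio as a covariate the change was 0.04 in CapH2 (adjusted p = 0.988), 1.53 in Smc2 (SE 0.211, limma adjusted p = 0.0392) and -0.58 in Smc1 (adjusted p = 0.251). The sign for Smc1 was thus turned, and the Smc2 change was called. Knockdown and Actb ratio go together on these arrays, and their parts cannot be told apart for CapH2 and Smc1, where both knockdown arrays had a ratio below both GFP arrays. In CapH2 and Smc2 the 2 arrays also differ in hairpin, so ratio and hairpin cannot be told apart within these groups. The Smc2 change with the covariate rests in part on those within-group differences.

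**Figure D4:**
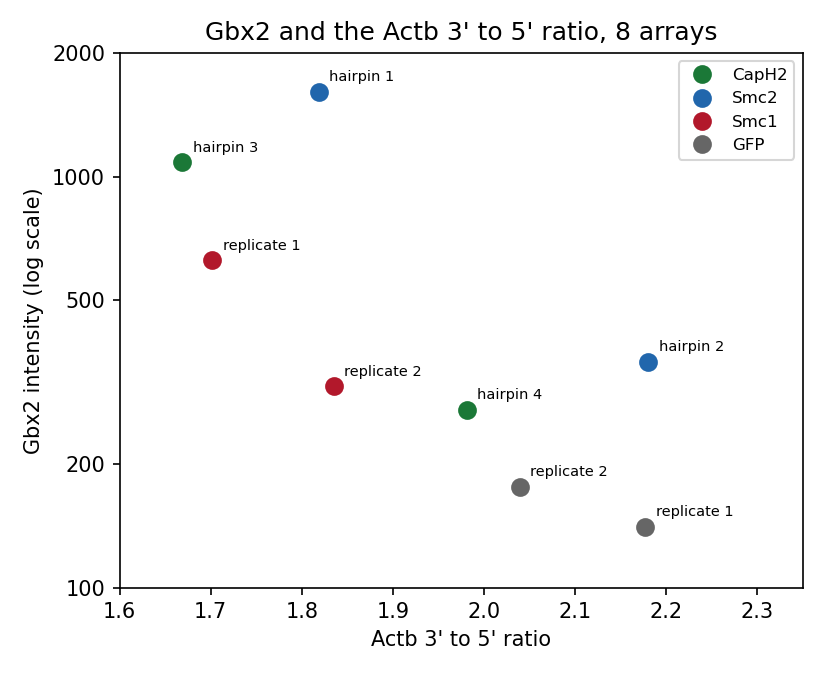
Gbx2 intensity (log axis) against the Actb 3' to 5' ratio of the same array, 1 point per array, coloured by group. The 2 GFP points are the lowest, and the higher point of each knockdown has the lower ratio.

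The Smc1 knockdown was also set against the mean of the CapH2 and Smc2 knockdowns, which leaves the GFP arrays out of the difference and asks where cohesin and condensin depletion differ. Of the 9 genes, Lifr was called, lower in Smc1 by -0.82 (SE 0.214, limma adjusted p = 0.0469). Among all genes 7.75% were called, 5.53% higher and 2.23% lower. This Lifr call was lost in 13 of 19 other settings, among them those without Smc1 replicate 1 (-0.39, adjusted p = 0.405) and with the mean of its 3 probe sets (-0.43, adjusted p = 0.335). Both comparisons use the same Smc1 arrays and are not independent.

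Junb was next, higher in Smc1 than in the condensin knockdowns by 0.93 (SE 0.259, limma adjusted p = 0.0566), outside the threshold. Its 4 condensin arrays lay between 113 and 196, and its 2 Smc1 arrays at 321 and 264. Junb was called without CapH2 hairpin 3 (1.11, adjusted p = 0.0328) or without Smc2 hairpin 2 (1.01, adjusted p = 0.0483). Stat3 (0.45, adjusted p = 0.143) and Jak1 (0.45, adjusted p = 0.186) were not called. Pim1 (-0.33), Socs3 (-0.21), Il6st (-0.05), Pim3 (0.02) and Gbx2 (-0.53) were not called either, with overlapping groups. Of the 9 genes, 3 lay higher and 1 lower on both Smc1 arrays than on all 4 condensin arrays, against 20.5% and 14.6% of all genes tested.

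Between the CapH2 and Smc2 knockdowns none of the 9 genes was called, with 0 of 9 at an unadjusted limma p below 0.05. Among all genes 0.00807% were called (1 gene, the targeted Ncaph2). The changes ran from -0.47 for Gbx2 to 0.38 for Il6st. Of the 9 genes, 1 lay higher on both CapH2 arrays than on both Smc2 arrays (Il6st) and 1 lower (Lifr), against 12.5% and 10.3% of all genes. Il6st was at 997 and 874 in CapH2 against 768 and 666 in Smc2, a log2 difference of 0.38 (SE 0.198, 95% interval -0.07 to 0.82). The Gbx2 interval, -2.05 to 1.12, was the widest and does not show that the condensin knockdowns act alike on this gene.

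On the probe set that stands for each gene, the order of group means put Smc1 lowest for Lifr, Socs3 and Pim1. Smc1 was highest for Jak1, Stat3 and Junb, and between the others for Il6st, Pim3 and Gbx2. For Socs3 and Pim1 the Smc1 arrays overlapped those of the neighbouring group, and the probe sets of Stat3 disagreed. Groups that did not overlap with GFP numbered 4 higher and 2 lower of 9 in Smc1, against 34.5% and 28.4% of all genes. They numbered 1 higher and 2 lower in CapH2, against 25.3% and 21.9%, and 1 higher and 2 lower in Smc2, against 23.1% and 21.7%.

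The other genes of the pathway were described from 4 lists: 11 cytokines and receptor chains of the interleukin 6 family, 13 kinases, adaptors and other Stats, 12 inhibitors, and 11 other reported Stat3 targets in ES cells. Of these, 7, 12, 12 and 10 genes were tested. None was called in the CapH2 or the Smc2 knockdown, where the share over all genes was 0.0161%. In the Smc1 knockdown 1 of 7, 2 of 12, 2 of 12 and 3 of 10 were called, against the 14.0% given above. The 1 of 7 is Osmr, which was tested only through the Smc1 arrays in which it was high. The other 6 genes of that list were not called.

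Among receptor chains, Osmr, which pairs with gp130 in the oncostatin M receptor, was called higher in the Smc1 knockdown. It measured 58.1 and 27.4 on the CapH2 arrays, 34.6 and 63.9 on Smc2, 118 and 94.4 on Smc1 and 26.0 and 26.7 on GFP. Its log2 change in Smc1 was 1.52 (limma adjusted p = 0.0436). Osmr lay above the array's median only on the Smc1 arrays, so it was tested through the group in which it was high. Its GFP values lay below the array medians, and the size of the change moved with the pseudocount, to 0.91 with 64 and to 1.96 with 1, where the call was lost (adjusted p = 0.0564). Leaving out any 1 of the Smc1 or GFP arrays ended the call (1.38 to 1.67, adjusted p from 0.100 to 0.239). The median log2 change of the 7 genes was 0.04.

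Among kinases, adaptors and Stats, Ptpn11 and Stat5b were called higher in the Smc1 knockdown. Ptpn11 encodes Shp2, a phosphatase that binds gp130 and links it to the Ras pathway. It measured 1884 and 1276 on the CapH2 arrays, 1844 and 1511 on Smc2, 2089.9 and 1602 on Smc1 and 1011 and 1029.8 on GFP, with all knockdown arrays above GFP. Its other probe sets were dim, with means of 77.9 and 60.6. The change of Ptpn11 in Smc1 was 0.83 (limma adjusted p = 0.0390). It was 0.36 with the mean of its probe sets (adjusted p = 0.508) and 0.40 with the Actb ratio as a covariate (adjusted p = 0.303). Without any 1 of the Smc1 or GFP arrays it was not called (0.64 to 1.02).

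Stat5b, a relative of Stat3, measured 185 and 204 on CapH2, 151 and 200.4 on Smc2, 364 and 343 on Smc1 and 191 and 202 on GFP. Its change in Smc1 was 0.80 against GFP (adjusted p = 0.0482) and 0.89 against the condensin knockdowns (adjusted p = 0.0292), where Jak2 was called too (0.98, adjusted p = 0.0181). With the mean of its probe sets Stat5b changed by 0.53 and 0.15 and was not called. Its other probe set was dim, with a mean of 36.0, and never lay above the median of an array. Without any 1 of the CapH2, Smc1 or GFP arrays Stat5b was not called against GFP (0.75 to 0.84), and against the condensin knockdowns it lost the call in 10 of 19 other settings. Jak2 was called in 17 of 19 other settings and lost the call without either Smc1 replicate (0.96 and 1.00, adjusted p = 0.195 and 0.0851).

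Among inhibitors, Socs5 was called higher and Socs2 lower in the Smc1 knockdown. Socs2, which acts mainly on growth hormone signalling, measured 2629 and 2727 on the CapH2 arrays, 3123 and 2097 on Smc2, 1407 and 1091 on Smc1 and 3114 and 2811 on GFP. Both Smc1 arrays were below all others. Its change was -1.25 against GFP (limma adjusted p = 0.0073) and -1.07 against the condensin knockdowns (adjusted p = 0.0114). The first call was lost without GFP replicate 1 (-1.17, adjusted p = 0.0782), and the second without either Smc1 replicate (-1.25 and -0.89, adjusted p = 0.100 and 0.0851).

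Socs5, a member of the same family, measured 571 and 547 on CapH2, 623 and 544 on Smc2, 705 and 708 on Smc1 and 317 and 338 on GFP. All knockdown arrays were above GFP, with changes of 0.74 in CapH2 (adjusted p = 0.219), 0.80 in Smc2 (adjusted p = 0.218) and 1.07 in Smc1 (adjusted p = 0.0077). The CapH2 and Smc2 changes were not called. The Smc1 call was lost when Smc1 replicate 1 was left out (1.08, adjusted p = 0.0725), and likewise for GFP replicate 1 (1.03, adjusted p = 0.0722). The median of the 12 inhibitors was 0.09 in Smc1.

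Among the other Stat3 targets, Klf4, Tfcp2l1 and Kdm3a were called lower in the Smc1 knockdown. Klf4 and Tfcp2l1 are transcription factors of the naive pluripotency network, and Kdm3a is a histone H3 lysine demethylase. Klf4 measured 8534 and 7639 on the CapH2 arrays, 8977 and 7334 on Smc2, 2134 and 2660.2 on Smc1 and 5780.4 and 7842 on GFP. Both Smc1 arrays were far below all others, and the change was -1.49 against GFP (SE 0.189, limma adjusted p = 0.0028) and -1.76 against the condensin knockdowns (SE 0.164, adjusted p = 0.0021). Klf4 was called in all 19 other settings of both comparisons.

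Tfcp2l1 measured 1607 and 1691 on CapH2, 991 and 1575 on Smc2, 608 and 1166 on Smc1 and 2046 and 2822 on GFP. All knockdown arrays were below GFP, and the changes were -0.54 in CapH2 (adjusted p = 0.496), -0.93 in Smc2 (adjusted p = 0.292) and -1.49 in Smc1 (adjusted p = 0.0153). As with Lifr, Smc1 replicate 1 was the lower of its pair. Without it the Smc1 change was -1.03 (adjusted p = 0.133), and the call was also lost without GFP replicate 1 (-1.72) or 2 (-1.26). It was lost as well with the mean of its probe sets (-0.73, adjusted p = 0.118) and with the Actb ratio as a covariate (-1.08, adjusted p = 0.124). The other probe sets of Tfcp2l1 were dim, with means of 14.6 and 10.9, and never lay above the median of an array.

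Kdm3a measured 3927 and 4234 on CapH2, 3767 and 3753 on Smc2, 2596 and 2906 on Smc1 and 4320.4 and 4783 on GFP. Its change was -0.72 against GFP (adjusted p = 0.0127) and -0.51 against the condensin knockdowns (adjusted p = 0.0397). The first was lost without Smc1 replicate 1 (-0.64) or either GFP array (-0.80 and -0.65) and with the Actb ratio as a covariate (-0.67, adjusted p = 0.0584), and the second in 11 of 19 other settings. The median of the 10 targets was -0.25 in Smc1, 0.02 in CapH2 and 0.06 in Smc2.

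**Figure D5:**
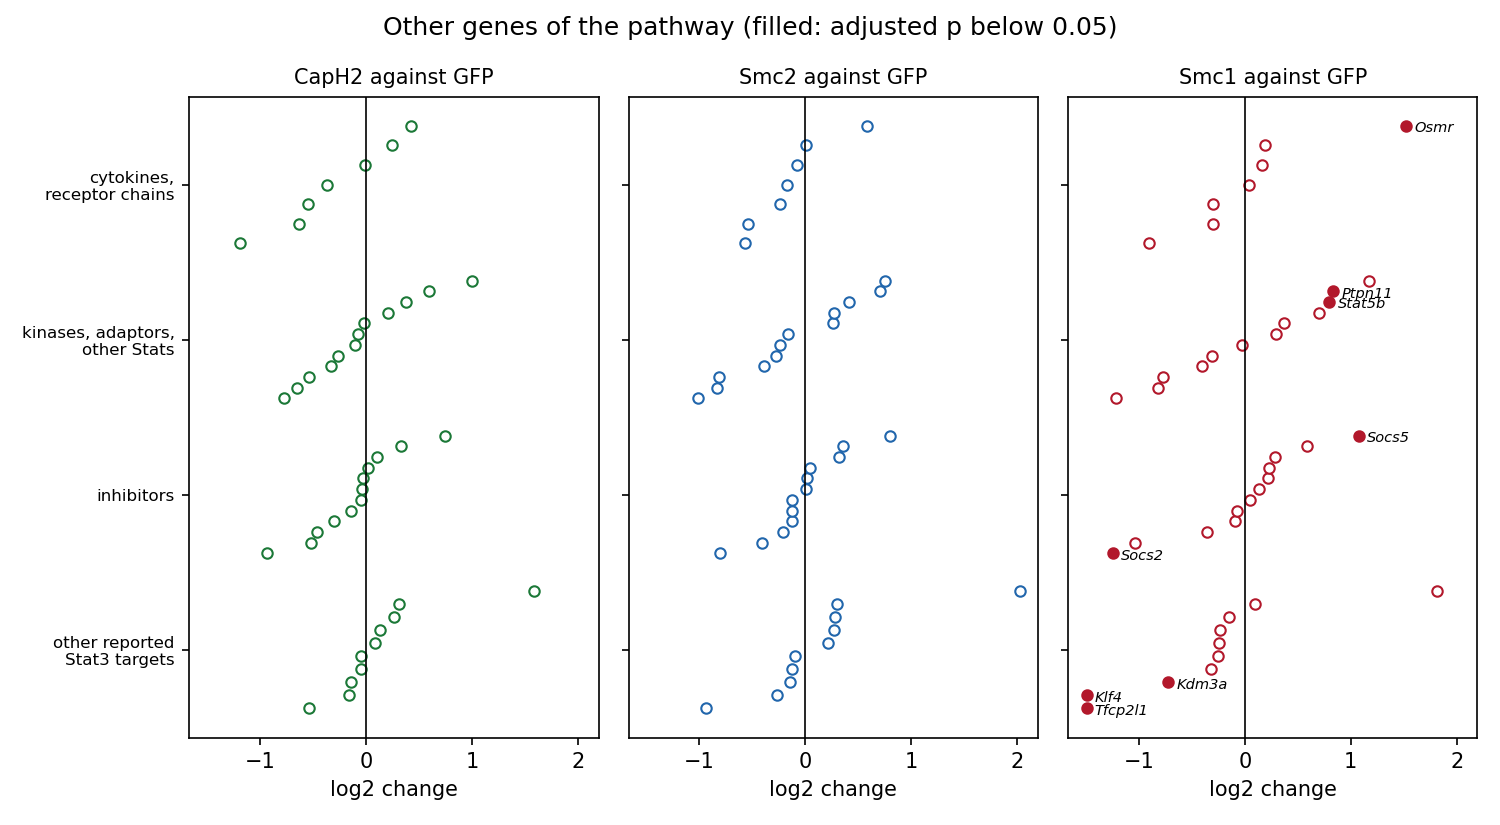
Log2 change of the other pathway genes in each knockdown over GFP, 1 point per gene tested, with filled and named points for an adjusted p below 0.05. All 8 filled points are in the Smc1 panel, 4 on each side of 0. Osmr, among them, was tested only through the Smc1 arrays in which it was high.

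Of the 10 other Stat3 targets tested, Klf4, Tfcp2l1 and Kdm3a were called lower in the Smc1 knockdown against GFP, and 7 were not called. Of Socs3, Pim1, Pim3, Junb and Gbx2 none was called there, with Pim1 just outside the threshold (-0.61, limma adjusted p = 0.0546). Whether these 2 sets of Stat3 targets differ was not tested. Klf4 and Tfcp2l1 also belong to the pluripotency network, and Nanog, Sox2, Zfp42 and Pou5f1 were called lower in the same comparison. Whether these falls are linked was not tested.

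Interferon receptors use Jak1 as the LIF receptor does, so interferon-induced genes were described as well. Whether their changes run through interferon receptors or Jak1 was not tested. Of 9 interferon-induced genes tested, 8 were called higher in the Smc1 knockdown against GFP, where 9.30% of all genes were. Ifit1 and Rtp4, among the 8, lay above the array's median only on the Smc1 arrays and so were tested through the group in which they were high. Of the other 7 genes 6 were called. Irf9, the gene not called, was lower, at 187 and 255 on Smc1 and 284 and 342 on GFP. The list was chosen with earlier results of these data known. Gbp2, a guanylate-binding protein, measured 623 and 283 on the CapH2 arrays, 379 and 639.8 on Smc2, 5792 and 2783 on Smc1 and 336 and 342 on GFP. Irf1, an interferon-induced transcription factor, measured 1122 and 737 on CapH2, 991 and 891 on Smc2, 2732 and 2291 on Smc1 and 824 and 839 on GFP. Psmb8, Gbp7 and Irgm1 were called higher as well (limma adjusted p = 0.0024, 0.0028 and 0.0029). Psmb8 measured 1426 and 942 on Smc1 and 50.9 and 4.67 on GFP, Gbp7 1452 and 1031 on Smc1 and 26.1 and 104 on GFP, and Irgm1 1184 and 759 on Smc1 and 18.1 and 91.7 on GFP. Their GFP values lay near or below the array medians, so the size of the fitted change depends on the pseudocount and is not given. Without Smc1 replicate 1 the count was 4 in place of 8. Against the condensin knockdowns 7 were called higher, where 5.53% of all genes were, but 0 without Smc1 replicate 1, in a fit that then called 9 of all genes. Ifit1 and Rtp4 are among the 9 genes tested in that comparison too, so its count is not free of their selection through the Smc1 arrays. In the CapH2 and Smc2 knockdowns none of the 9 was called. Socs3, which interferons can also induce, and Jak1 were not called in the Smc1 knockdown against GFP. The log2 change was -0.12 for Socs3 (interval -0.48 to 0.24) and 0.31 for Jak1 (interval -0.17 to 0.80). A rise of either gene lies within its interval, and phosphorylation by Jak1 was not measured.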

How the data were processed

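RNA from V6.5 mouse ES cells was hybridised to 8 one-colour Affymetrix arrays, 2 per hairpin target. The deposited values are intensity on a linear scale, with 44903 probe sets on each array. How probes were summarised by the authors is not given here in any source used. Trimmed means agreed on all arrays, so the values had been scaled, and no further normalization was applied. Gene symbols came from the platform annotation: 34758 probe sets had 1 symbol and were used, 926 had several and 9206 none, and 64 array controls, most of them among those with none, were left out. For each gene the probe set with the highest mean log2 value stood for it.

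Values were analysed as log2(value + 16) with limma 3.58.1 in R 4.3.3, by lmFit and eBayes with an intensity trend, all 8 arrays and 4 group means in 1 fit (4 residual and 5.97 prior degrees of freedom). Genes had to exceed the array's median on at least 2 arrays. The number of arrays limits the precision. The spread of each gene is pooled over groups and mixes differences between hairpins with differences between replicates. The fit was tested on simulated data. Whether the replicate numbers pair the Smc1 and GFP arrays is not known, and the main fit treats them as unpaired. The deviations of both replicates numbered 1 correlated at r = 0.07 across genes, which does not settle it. Alternatives were quantile normalization, median centring, pseudocounts of 1 and 64, no filter, other uses of the probe sets, only the groups compared, no trend, the Actb ratio as a covariate, a replicate block and leaving out each array. For the other pathway genes they were chosen after seeing the data. The named genes were the 9 members, the hairpin targets, up to 4 called genes of each list and comparison, and the 5 genes most correlated with Socs3. Members and lists were chosen with earlier results of these data known. Promoter windows are from RefSeq tables.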

Additional observations from a re-analysis of the deposited data

How the results depend on the processing

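Each of the 45 log2 changes (9 genes, 5 comparisons) was refitted under 19 alternatives. Of the 855 refits, 819 kept the side of the threshold, 22 lost the call, all of them of Lifr, and 13 gained one. Among the 819, the sign differed in 56, with no call on either side and with at least one value within 1 SE of 0. The sign of Gbx2 in the Smc1 knockdown against GFP was turned with the Actb ratio as a covariate (-0.58, SE 0.272), and the cause was not tested. Of the 9 genes, 1 was called in that comparison. Under the alternatives 2 were called after quantile normalization (Lifr and Pim1), 3 with only the groups compared (Gbx2, Lifr and Pim1), and 0 without the filter, without the trend or with the Actb ratio. Without each array in turn 0 to 2 were called. Against the condensin knockdowns 1 was called. There were 0 after quantile normalization, with a pseudocount of 1, without the filter, with the mean of probe sets, with only the groups compared or without the trend. There were 2 with a pseudocount of 64 (Junb and Lifr) and 3 with the Actb ratio (Gbx2, Jak1 and Lifr), and 0 to 1 without an array. In the Smc2 knockdown 0 were called, but 1 (Gbx2) with the Actb ratio, and 0 to 1 without an array. In the CapH2 knockdown, and between CapH2 and Smc2, 0 were called in all settings.

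With a replicate block for the numbers shared by Smc1 and GFP arrays, Lifr was called in both comparisons (1 of 9 genes each). Calls over all genes were then 1366 in place of 1734 against GFP and 676 in place of 961 against the condensin knockdowns. The numbers of calls over all genes also moved with single arrays. They ran from 138 to 2190 against GFP and from 9 to 1163 against the condensin knockdowns, with the lowest without Smc1 replicate 1 in each. They were 2701 with only the groups compared and 569 with the Actb ratio against GFP. Against the condensin knockdowns they were 594 without the filter, 598 with only the groups compared and 1646 with the Actb ratio. In the Smc2 knockdown they were 53 with the Actb ratio and up to 194 without an array, in place of 2. In dim probe sets, near the array medians, the intensity itself limits what can be seen.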

Other observations

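Myc, another reported Stat3 target and a general driver of growth, was the point farthest to the right among the other targets in the CapH2 and Smc2 knockdowns, and was chosen here after its values were seen. It measured 419.8 and 84.9 with CapH2 hairpins 3 and 4, 513 and 135 with Smc2 hairpins 1 and 2, 358 and 145 on the Smc1 replicates and 35.8 and 77.9 on the GFP replicates. As for Gbx2, all 6 knockdown arrays lay above both GFP arrays, and the higher array of each knockdown was CapH2 hairpin 3, Smc2 hairpin 1 and Smc1 replicate 1. These arrays had the lower Actb 3' to 5' ratio of their pairs, at 1.67, 1.82 and 1.70. The part of that ratio in the Myc values was not tested. None of its changes (1.59, 2.02 and 1.82) was called (limma adjusted p = 0.407, 0.326 and 0.128).

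The genes whose log2 values were most like those of Socs3 over the 8 arrays were Atxn7l1os2 (Pearson r 0.963), Snorc (0.951), Tmem131 (0.948), Setdb2 (0.948) and 2310068J16Rik (0.946). Atxn7l1os2 (45.9 to 97.4), Snorc (14.5 to 117) and 2310068J16Rik (59.4 to 146) were dim and lay below the array's median on some arrays. The arrays share groups and are not independent, so the correlations are descriptions. Of the genes most like Socs3, Atxn7l1os2, Snorc, Tmem131 and Setdb2 were lowest on Smc1 replicate 1, as Socs3 was. They were picked by their likeness to Socs3 over these same arrays, so a shared lowest array is no separate result. Tmem131 measured 3336 and 3245 on CapH2, 3479 and 3358 on Smc2, 2494 and 3227 on Smc1 and 2905 and 3588 on GFP.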
